A study of Arabidopsis thaliana with 8 samples.

Results

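The SAUR (small auxin-up RNA) genes of Arabidopsis thaliana are described here as 49 genes, chosen by gene code, out of the 33518 genes counted in each library. The 49 hold tandem clusters on chromosome 1 (8 genes), chromosome 3 (4 genes), chromosome 5 (6 genes) and chromosome 4, where an upper cluster has 7 genes and a lower one has 4. A chromosome 2 pair (2 genes) and 18 genes outside clusters complete the set. RNA was sequenced from whole seedlings of the Col-0 ecotype, grown for 5 days in darkness on MS medium with BRZ (brassinazole). Every genotype received this inhibitor of the plant's own synthesis of brassinosteroid hormones. The genotypes, with 2 libraries each, were bzr1-1D, pifq, pifq;bzr1-1D and the wild type Col-0. The dominant bzr1-1D allele keeps BZR1, a transcription factor of brassinosteroid signalling, from being degraded. The pifq mutant is without 4 phytochrome-interacting transcription factors (PIF1, 3, 4 and 5), and the combined mutant pifq;bzr1-1D joins both. Separate cultures behind the replicates are not stated in the labels, and p-values therefore reflect only the spread between libraries, possibly technical.

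SAUR genes are the largest family of early auxin genes, and their short RNAs are made within minutes of an auxin signal and are quickly degraded. Several SAUR proteins, SAUR19 among them, bind and inhibit phosphatases of the PP2C.D type, which otherwise switch off the plasma membrane proton pumps (AHA). With the phosphatase held back, the pumps acidify the cell wall, the wall loosens and the cell elongates. BZR1, the PIFs and the auxin response factors (ARFs) are known to act together on genes of hypocotyl elongation, and the dark-grown hypocotyl is where this growth is fastest.

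Libraries held 16.1 to 34.4 M gene counts, M standing for mega. Levels are given as CPM, the counts of a gene per M gene counts of its library. Where 0 counts were seen, up to 3 counts remain possible at 95% confidence. This limit corresponds to 0.0872 to 0.186 CPM by library and covers counting error only. The lines lacking the PIFs still gave reads over the PIF genes: PIF4 had 25.0 and 25.8 CPM in pifq libraries and 47.0 and 45.1 CPM in pifq;bzr1-1D libraries, against 14.5 and 15.1 CPM in Col-0 libraries. The other PIF genes were lower than in Col-0. PIF3 had 114 and 108 CPM in pifq libraries, against 212 and 207 CPM in Col-0 libraries. PIF1 had 21.5 and 22.2 CPM in pifq against 47.9 and 47.2 CPM in Col-0, and PIF5 had 10.9 and 11.7 CPM against 36.5 and 35.1 CPM. Counts over a whole gene leave unknown where along the transcript the reads fell, and the bzr1-1D change does not show in counts at all, so neither checks the labels. The etiolated-tissue genes PORA and PORB together reached at least 3096 CPM in every library. Whole seedlings were measured, so fewer cells of a type and less RNA per cell cannot be told apart.

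Tandem SAUR copies are alike enough for reads to be shared, which matters for every value of a single copy. Within the chromosome 5 cluster, SAUR19 to SAUR24, the coding sequences of RefSeq's TAIR10.1 annotation were 88.3% to 95.9% identical (median 92.5%). The following stretch of 150 bases, coding bases 115 to 264 of SAUR19 and the aligned bases of the other copies, is shown because it carries the differences by which a read can be given to a copy. It is written 5′ to 3′ on the coding strand (minus for SAUR19, SAUR20 and SAUR22, plus for the others), and capitals mark bases that differ from SAUR19.
SAUR19: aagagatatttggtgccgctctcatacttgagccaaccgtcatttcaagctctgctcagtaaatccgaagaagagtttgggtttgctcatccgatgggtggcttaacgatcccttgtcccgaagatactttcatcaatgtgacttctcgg
SAUR20: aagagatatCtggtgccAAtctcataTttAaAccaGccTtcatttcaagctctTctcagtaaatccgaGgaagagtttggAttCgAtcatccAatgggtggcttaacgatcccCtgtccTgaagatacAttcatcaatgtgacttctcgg
SAUR21: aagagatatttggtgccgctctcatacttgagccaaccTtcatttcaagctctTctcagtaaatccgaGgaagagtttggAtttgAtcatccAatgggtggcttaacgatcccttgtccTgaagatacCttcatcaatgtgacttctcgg
SAUR22: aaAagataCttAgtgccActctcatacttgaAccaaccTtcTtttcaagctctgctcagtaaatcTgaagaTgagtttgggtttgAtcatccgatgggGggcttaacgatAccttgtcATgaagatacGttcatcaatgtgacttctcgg
SAUR23: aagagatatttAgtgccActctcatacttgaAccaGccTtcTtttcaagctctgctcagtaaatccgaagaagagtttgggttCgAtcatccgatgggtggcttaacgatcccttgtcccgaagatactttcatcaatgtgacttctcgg
SAUR24: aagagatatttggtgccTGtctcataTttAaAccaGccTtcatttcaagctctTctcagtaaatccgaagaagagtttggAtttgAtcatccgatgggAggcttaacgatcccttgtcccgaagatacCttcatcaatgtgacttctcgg
SAUR21 and SAUR23 differed from SAUR19 at 8 of the 150 bases, SAUR24 at 12, SAUR22 at 15 and SAUR20 at 17. Identity was 78.4% to 91.3% within the chromosome 1 cluster and 80.6% to 87.2% within the chromosome 3 cluster. It was lower in the upper and lower clusters on chromosome 4, at 54.8% to 72.3% and 57.4% to 70.4%. Across clusters, the closest pair was SAUR27 of chromosome 3 and SAUR21 of chromosome 5, at 85.4%. How reads with several hits were counted is not given in the sources used here, so single copies of the chromosome 1, 3 and 5 clusters are uncertain and each cluster was also summed. Overlapping genes are uncertain too, since the strand setting is not given. SAUR63 overlaps AT1G29435 over 602 bases, SAUR8 overlaps AT2G16575 over 594, SAUR31 overlaps AT4G00883 over 516, SAUR13 overlaps AT4G38820 over 433, SAUR61 overlaps a non-coding gene over 342 and SAUR64 overlaps AT1G29435 over 32, all on opposite strands. SAUR6 and SAUR7 overlap each other by 176 bases on the same strand.

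All 49 members had a row in every library, and 43 reached a mean of 1 CPM in some genotype, while 18 reached 10 CPM. Of those 43, the mean was highest in bzr1-1D for 30, in pifq for 3, in pifq;bzr1-1D for 4 and in Col-0 for 6. It was lowest in bzr1-1D for 5, in pifq for 25, in pifq;bzr1-1D for 5 and in Col-0 for 8. Summed over the members, the family took 514 and 487 CPM in bzr1-1D libraries, 159 and 160 CPM in pifq libraries and 215 and 209 CPM in pifq;bzr1-1D libraries, against 224 and 227 CPM in Col-0 libraries. The bzr1-1D libraries thus stood alone at the high end, the pifq libraries at the low end, and the double mutant lay just under Col-0. The order of these last genotypes hung on SAUR36, which averaged 38.1 CPM in Col-0 and 12.0 CPM in pifq;bzr1-1D, a wider gap than that between the sums. Among the cluster sums, that of chromosome 5 had a lower mean in the double mutant than in Col-0, and the others had a higher one. SAUR30 had 0 counts in every library, SAUR13 had a count in 1 Col-0 library only, and SAUR2 stayed at or under 0.165 CPM. These 3 were removed by the count filter and the other 46 were tested.

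**Figure D1:**
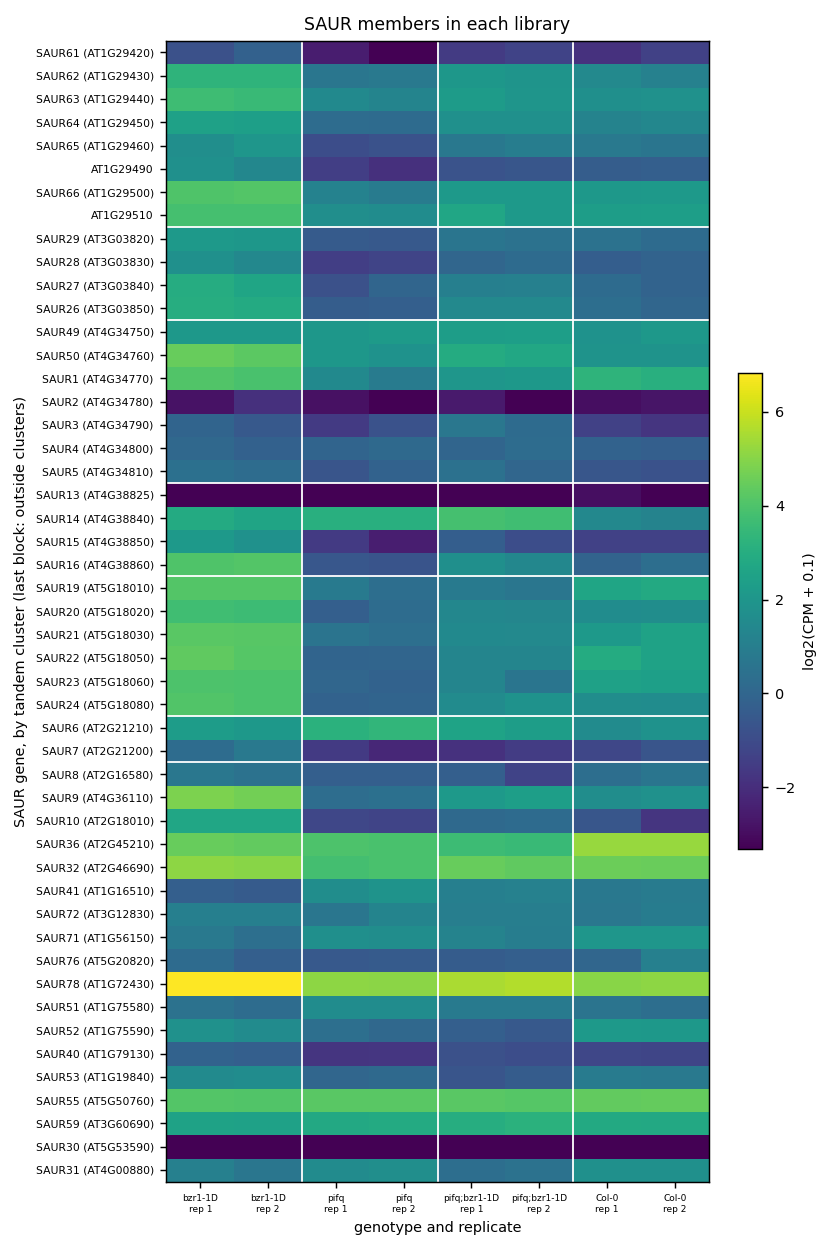
Each row is a SAUR gene and each column a library, ordered bzr1-1D, pifq, pifq;bzr1-1D and Col-0 with 2 replicates each; colour gives log2(CPM + 0.1), and white lines part the tandem clusters (chromosomes 1, 3, 4 upper, 4 lower, 5, the chromosome 2 pair, then genes outside clusters). Most clustered genes have their highest mean in the bzr1-1D columns. Exceptions are SAUR3, SAUR4, SAUR14 and SAUR49 (highest in pifq;bzr1-1D), SAUR6 (in pifq) and SAUR13 (in Col-0). SAUR78 is the brightest row, at 113 and 110 CPM in bzr1-1D.

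Among the cluster sums, the chromosome 5 cluster, SAUR19 to SAUR24, whose proteins drive cell expansion, had 101 and 96.5 CPM in bzr1-1D libraries. It had 6.44 and 6.05 CPM in pifq libraries and 14.5 and 13.8 CPM in pifq;bzr1-1D libraries, against 29.7 and 29.6 CPM in Col-0 libraries. All 4 genotypes were apart from each other, with pifq lowest.
The chromosome 1 cluster, SAUR61 to SAUR66 with AT1G29490 and AT1G29510, had 65.2 and 64.8 CPM in bzr1-1D, 11.3 and 10.4 CPM in pifq and 25.2 and 22.0 CPM in pifq;bzr1-1D, against 19.7 and 19.8 CPM in Col-0. SAUR63 of this cluster is known to promote elongation of hypocotyls and stamen filaments, and here the double mutant stood above Col-0. The chromosome 3 cluster, SAUR26 to SAUR29, had 23.1 and 20.05 CPM in bzr1-1D, 2.10 and 2.56 CPM in pifq and 7.01 CPM in each pifq;bzr1-1D library, against 4.30 and 3.65 CPM in Col-0. It ranked the genotypes in the same order as the chromosome 1 cluster, with no overlap between them.

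The upper chromosome 4 cluster, SAUR49, SAUR50 and SAUR1 to SAUR5, had 46.3 and 40.8 CPM in bzr1-1D, 12.4 and 12.01 CPM in pifq and 20.1 and 18.9 CPM in pifq;bzr1-1D, against 18.3 and 17.6 CPM in Col-0. The lower chromosome 4 cluster, SAUR13 to SAUR16, broke the order: it had 27.9 and 26.8 CPM in bzr1-1D, 9.20 and 9.05 CPM in pifq and 18.1 and 15.95 CPM in pifq;bzr1-1D, against 3.75 and 3.70 CPM in Col-0. Here Col-0 was the lowest genotype, not pifq. The chromosome 2 pair, SAUR6 and SAUR7, had 5.86 and 5.72 CPM in bzr1-1D, 9.16 and 10.3 CPM in pifq and 6.06 and 5.21 CPM in pifq;bzr1-1D, against 3.26 and 4.09 CPM in Col-0. For the pair, the pifq libraries were highest, and the bzr1-1D and pifq;bzr1-1D libraries overlapped. SAUR6 made up 71.9% to 98.8% of the pair's counts by library.

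**Figure D2:**
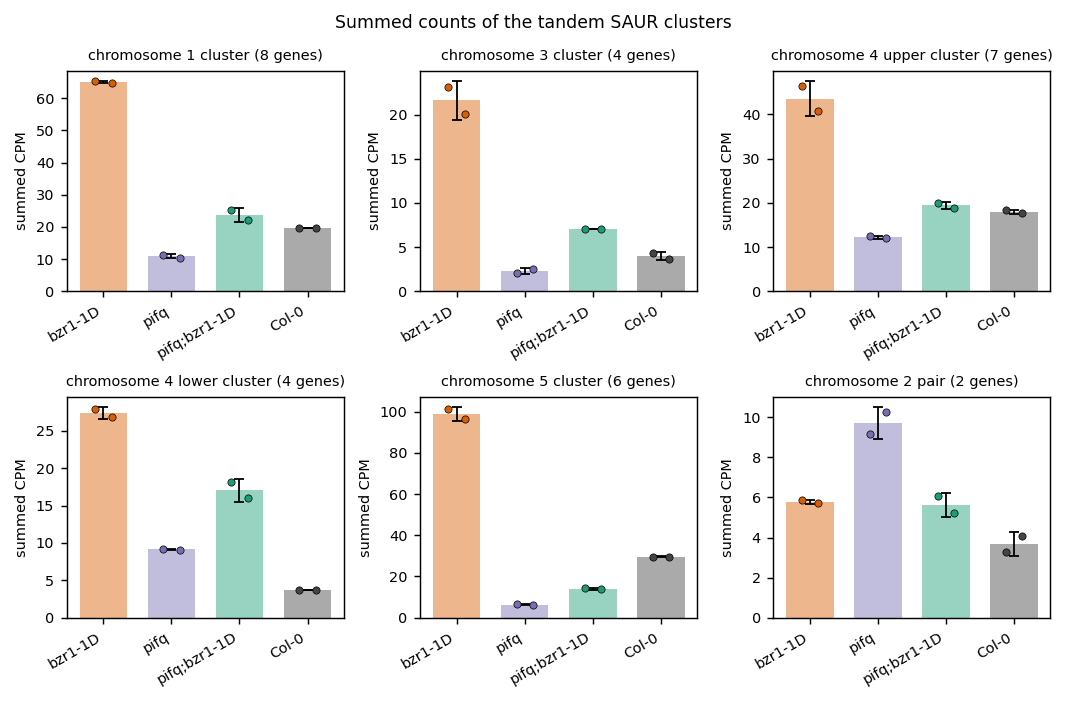
Summed CPM of each tandem cluster by genotype; points are libraries, bars are means and error bars are 1 SD (n = 2). The chromosome 5 cluster runs between 6.05 CPM in pifq and 101 CPM in bzr1-1D, and of these 6 groups the chromosome 2 pair is the one highest in pifq.

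The first comparison addressed what active BZR1 does while the PIFs are present. SAUR genes were mostly higher in bzr1-1D than in Col-0: 33 of the 46 tested members were called higher and 7 lower by edgeR at an adjusted p under 0.05, where 30.8% and 26.1% of all genes tested were called higher and lower. The median log2 fold change was 1.48 over the tested members and 0.02 over all genes, and 29 of the called members were higher by more than 2-fold. Among clustered genes, 27 of 29 tested were called higher and none lower, while the 17 tested genes outside clusters split into 6 higher and 7 lower. The cluster sums rose by 1.75 ± 0.06 (SE) on the log2 scale for chromosome 1, 2.44 ± 0.10 for chromosome 3, 1.30 ± 0.06 and 2.90 ± 0.09 for the upper and lower chromosome 4 clusters, 1.76 ± 0.05 for chromosome 5 and 0.72 ± 0.14 for the chromosome 2 pair. The edgeR adjusted p of these sums was at most 5.13e-05.

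The steepest rise was that of SAUR16 (AT4G38860), which is known as a light-induced gene of cotyledons. It had 16.5 and 17.4 CPM in bzr1-1D libraries, 0.582 and 0.528 CPM in pifq libraries and 3.18 and 2.48 CPM in pifq;bzr1-1D libraries, against 0.843 and 1.17 CPM in Col-0 libraries. Its log2 fold change in bzr1-1D was 4.15 ± 0.15 (edgeR adjusted p = 4.81e-22). SAUR10 (AT2G18010), a growth-promoting member outside the clusters, had 6.25 and 6.26 CPM in bzr1-1D, 0.349 and 0.325 CPM in pifq and 1.02 and 1.06 CPM in pifq;bzr1-1D, against 0.553 and 0.195 CPM in Col-0. It rose by 3.91 ± 0.23 (adjusted p = 5.47e-16), with every bzr1-1D library above all others. SAUR15 (AT4G38850), long used as an auxin marker, had 4.26 and 3.46 CPM in bzr1-1D, 0.233 and 0.0812 CPM in pifq and 0.711 and 0.435 CPM in pifq;bzr1-1D, against 0.291 and 0.292 CPM in Col-0. Its rise of 3.73 ± 0.29 (adjusted p = 4.40e-13) therefore rests on few counts in Col-0.

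SAUR9 (AT4G36110), whose protein binds PP2C.D phosphatases, was the next of the genes outside clusters. It had 28.1 and 25.5 CPM in bzr1-1D libraries, 1.13 and 1.26 CPM in pifq libraries and 4.27 and 5.03 CPM in pifq;bzr1-1D libraries, against 3.05 and 3.46 CPM in Col-0 libraries. The rise in bzr1-1D was 3.09 ± 0.10 (edgeR adjusted p = 4.27e-23), and the other mutants lay on either side of Col-0. SAUR78 (AT1G72430), which has been tied to ethylene receptors, had the highest level per length of transcript in the 3 mutants, with 92.9 CPM per kb in bzr1-1D, 28.1 CPM per kb in pifq and 39.9 CPM per kb in pifq;bzr1-1D, against 27.9 CPM per kb in Col-0, where SAUR36 had 32.4. Its counts were 113 and 110 CPM in bzr1-1D, 34.5 and 33.2 CPM in pifq and 46.0 and 50.1 CPM in pifq;bzr1-1D, against 32.7 and 34.6 CPM in Col-0, a rise of 1.77 ± 0.05 in bzr1-1D. SAUR50 (AT4G34760), another light-induced cotyledon gene, had 22.2 and 19.1 CPM in bzr1-1D, 4.00 and 3.49 CPM in pifq and 7.52 and 6.64 CPM in pifq;bzr1-1D, against 3.63 and 3.60 CPM in Col-0. It rose by 2.54 ± 0.11 in bzr1-1D, and in pifq its libraries spanned the Col-0 values.

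SAUR32 (AT2G46690), an apical hook gene, rose less. Its libraries held 33.996 and 32.4 CPM in bzr1-1D, 13.9 and 15.1 CPM in pifq and 21.7 and 20.2 CPM in pifq;bzr1-1D, against 23.0 and 22.4 CPM in Col-0, a rise of 0.57 ± 0.06 in bzr1-1D. The order of the 4 genotypes was that of the family sum.

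The 7 members called lower in bzr1-1D all lie outside the tandem clusters. SAUR71 (AT1G56150), a relative of SAUR41, had 1.64 and 1.19 CPM in bzr1-1D, 3.26 and 3.04 CPM in pifq and 2.20 and 1.86 CPM in pifq;bzr1-1D, against 3.98 and 3.89 CPM in Col-0. It fell by 1.44 on the log2 scale (SE 0.19, edgeR adjusted p = 6.67e-08). SAUR41 (AT1G16510) itself had 0.742 and 0.659 CPM in bzr1-1D, 3.07 and 3.61 CPM in pifq and 2.00 and 2.11 CPM in pifq;bzr1-1D, against 1.57 and 1.75 CPM in Col-0. It fell by 1.19 in bzr1-1D (SE 0.27, adjusted p = 0.000302), where it ran below all other genotypes. SAUR36 (AT2G45210), which promotes leaf senescence, had 22.1 and 21.0 CPM in bzr1-1D, 15.99 and 15.2 CPM in pifq and 12.4 and 11.5 CPM in pifq;bzr1-1D, against 37.7 and 38.5 CPM in Col-0. It fell by 0.79 (SE 0.06), and Col-0 was its highest genotype.
SAUR31 (AT4G00880) had 2.07 and 1.48 CPM in bzr1-1D, 2.91 and 3.12 CPM in pifq and 1.19 and 1.30 CPM in pifq;bzr1-1D, against 3.32 and 3.36 CPM in Col-0, and fell by 0.87 (SE 0.19). SAUR55, SAUR52 and SAUR59 fell by 0.30, 0.41 and 0.29. The 6 members with no call were SAUR4, SAUR8, SAUR49, SAUR51, SAUR72 and SAUR76, with log2 fold changes between -0.57 and 0.30. SAUR72 of the SAUR41 group stayed between 1.47 and 2.27 CPM in all 8 libraries and was called in no comparison.

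Calls of 6 of these members were lost when a library was left out: SAUR61 (Col-0 replicate 1 or bzr1-1D replicate 2), SAUR3 (bzr1-1D replicate 1), SAUR6 and SAUR40 (Col-0 replicate 1 or bzr1-1D replicate 1), SAUR52 (either Col-0 replicate or bzr1-1D replicate 2) and SAUR59 (any of the 4), with edgeR adjusted p between 0.0510 and 0.225. DESeq2 did not call SAUR61, SAUR5, SAUR6, SAUR52, SAUR40, SAUR53 and SAUR59 (adjusted p 0.0616 to 0.274). Markers of other tissues also moved with genotype: the 6 green-tissue genes, all detected in every library, summed to 8992 to 9087 CPM in bzr1-1D, against 6436 to 6712 CPM in Col-0. RCA of this list ran the other way, at 783 and 786 CPM in bzr1-1D against 879 and 877 CPM in Col-0. The 5 root hair genes summed to 0.469 to 0.659 CPM in bzr1-1D, against 11.3 to 12.3 CPM in Col-0. The 7 seed storage genes, the oleosin gene OLEO1 counted among them, summed to 1.48 to 1.85 CPM against 170 to 175 CPM, and CRA1 and CRU3 carried this fall. In bzr1-1D the root hair gene LRX1 had 0 counts in replicate 1, SHV2 in replicate 2, and the seed genes SESA1 in replicate 1 and SESA2 in both. SESA1 to SESA4 were near the floor in Col-0 too, at or under 0.247 CPM in every library of both genotypes. PORA and PORB summed to 5421 to 5469 CPM in bzr1-1D, against 5876 to 5928 CPM in Col-0. The part of these differences in the SAUR values was not tested.

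The second comparison asked what the loss of the PIFs does in plants with the normal BZR1 gene. SAUR genes were mostly lower in pifq than in Col-0: 24 of 46 tested members were called lower and 4 higher by edgeR, where 30.5% and 32.0% of all genes tested were called lower and higher. The median log2 fold change was -0.73 over the tested members and 0.01 over all genes, and 17 of the called members were lower by more than 2-fold. All 6 copies of the chromosome 5 cluster fell, as did 7 of 8 in the chromosome 1 cluster, 2 of 4 in the chromosome 3 cluster and 7 of 17 outside clusters, where 2 rose. The chromosome 5 sum fell by 2.18 on the log2 scale (SE 0.08, edgeR adjusted p = 3.45e-22), the chromosome 1 sum by 0.79 (SE 0.08), the chromosome 3 sum by 0.74 (SE 0.17) and the upper chromosome 4 sum by 0.50 (SE 0.08). The lower chromosome 4 sum rose by 1.35 ± 0.12 (adjusted p = 4.93e-12) and that of the chromosome 2 pair by 1.50 ± 0.13 (adjusted p = 2.52e-12).

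The largest falls among members of at least 1 CPM were those of chromosome 5 copies. SAUR22 (AT5G18050) had 20.05 and 17.9 CPM in bzr1-1D libraries, 0.854 and 0.893 CPM in pifq libraries and 2.34 and 2.36 CPM in pifq;bzr1-1D libraries, against 7.53 and 5.65 CPM in Col-0 libraries. It fell by 2.89 in pifq (SE 0.20, edgeR adjusted p = 8.92e-15), below both Col-0 libraries. SAUR23 (AT5G18060) had 15.9 and 15.2 CPM in bzr1-1D, 0.931 and 0.812 CPM in pifq and 2.34 and 1.43 CPM in pifq;bzr1-1D, against 5.496 and 5.16 CPM in Col-0, a fall of 2.55 in pifq (SE 0.20). SAUR19 (AT5G18010) had 17.0 and 17.2 CPM in bzr1-1D, 1.71 and 1.18 CPM in pifq and 1.69 and 1.49 CPM in pifq;bzr1-1D, against 6.22 and 7.15 CPM in Col-0. It fell by 2.12 in pifq (SE 0.17), and its double mutant libraries lay within the span of the pifq libraries. SAUR21 (AT5G18030) had 18.5 and 18.2 CPM in bzr1-1D, 1.40 and 1.22 CPM in pifq and 2.71 and 2.61 CPM in pifq;bzr1-1D, against 4.42 and 5.69 CPM in Col-0. Its fall of 1.84 in pifq (SE 0.18) lay within the cluster's span, between the 1.64 of SAUR20 and the 2.89 of SAUR22.

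The 4 members that rose in pifq were SAUR14, SAUR6, SAUR51 and SAUR41. SAUR14 (AT4G38840), a further light-induced cotyledon gene, had 7.19 and 5.93 CPM in bzr1-1D libraries, 8.38 and 8.44 CPM in pifq libraries and 14.2 and 13.0 CPM in pifq;bzr1-1D libraries, against 2.59 and 2.24 CPM in Col-0 libraries. It rose by 1.84 ± 0.14 in pifq (edgeR adjusted p = 1.17e-13) and reached its highest level where both mutations met. SAUR6 (AT2G21210) had 4.77 and 4.12 CPM in bzr1-1D, 8.93 and 10.14 CPM in pifq and 5.89 and 4.97 CPM in pifq;bzr1-1D, against 2.91 and 3.55 CPM in Col-0, a rise of 1.66 ± 0.13 in pifq. SAUR51 (AT1G75580) had 1.33 and 1.11 CPM in bzr1-1D, 2.95 and 2.96 CPM in pifq and 1.69 and 1.74 CPM in pifq;bzr1-1D, against 1.40 and 1.17 CPM in Col-0, a rise of 1.24 ± 0.20 in pifq. SAUR41, whose values stand above, rose by 1.09 ± 0.19. For SAUR6, SAUR51 and SAUR41 the pifq libraries were the highest of all genotypes.

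SAUR36 fell by 1.22 in pifq (SE 0.06) and SAUR9 by 1.36 (SE 0.20), while SAUR78, at 0.08 ± 0.06, and SAUR50, at 0.11 ± 0.15, had no call. Calls of 8 members were lost when a library was left out, with edgeR adjusted p between 0.0514 and 0.276: SAUR61 (Col-0 replicate 2 or pifq replicate 2), SAUR62 and SAUR53 (Col-0 replicate 1 or pifq replicate 1), SAUR29 (Col-0 replicate 1 or pifq replicate 2), SAUR28 (pifq replicate 1), SAUR76 (Col-0 replicate 2 or pifq replicate 1), SAUR8 (the same or pifq replicate 2) and SAUR16 (Col-0 replicate 2 or any bzr1-1D or pifq replicate). Of these 8, SAUR28 was the one that DESeq2 called. The green-tissue genes summed to 16202 to 16367 CPM in pifq, against 6436 to 6712 CPM in Col-0, and PORA and PORB to 4352 to 4428 CPM against 5876 to 5928 CPM. PORA carried the fall of that pair, at 1767 and 1727 CPM in pifq against 3328 and 3313 CPM in Col-0. PORB was slightly higher in pifq, at 2662 and 2625 CPM against 2599 and 2563 CPM. The root hair genes summed to 6.21 to 6.79 CPM in pifq, against 11.3 to 12.3 CPM in Col-0, with all 5 detected in each of these libraries. RHD6 of this list did not fall, at 0.737 and 0.690 CPM in pifq against 0.785 and 0.584 CPM in Col-0. The seed storage genes summed to 42.0 to 43.0 CPM in pifq, against 170 to 175 CPM in Col-0. CRA1 and CRU3 carried this sum, whereas SESA1 to SESA4 ran the other way in pifq and in pifq;bzr1-1D. OLEO1 did so in pifq;bzr1-1D only, at 1.32 and 1.55 CPM against 1.05 and 1.07 CPM in Col-0. SESA2 had 0.931 and 1.34 CPM in pifq and 3.66 and 3.10 CPM in pifq;bzr1-1D, against 0.116 and 0.243 CPM in Col-0. Their part in the SAUR values was not tested.

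The third comparison set pifq;bzr1-1D against pifq and so gave the bzr1-1D effect without the PIFs. SAUR genes were again mostly higher: 30 of 46 tested members were called higher and 6 lower by edgeR, where 28.1% and 27.8% of all genes tested were called higher and lower. The median log2 fold change was 0.93 over the tested members and -0.01 over all genes, and 22 of the called members were higher by more than 2-fold. Every copy of the chromosome 1 and 3 clusters rose, as did 5 of 6 on chromosome 5, 4 of 6 and 3 of 3 tested in the upper and lower chromosome 4 clusters, and 6 of 17 outside clusters. The sums rose by 1.21 ± 0.08 for chromosome 1, 1.67 ± 0.15 for chromosome 3, 0.76 ± 0.08 and 1.00 ± 0.09 for the upper and lower chromosome 4 clusters and 1.26 ± 0.09 for chromosome 5, each with an edgeR adjusted p of 1.82e-09 or less. The sum of the chromosome 2 pair fell by 0.68 (SE 0.12, adjusted p = 1.14e-05).

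The strongest rises among members of at least 1 CPM were those of SAUR16 (2.46 ± 0.26), SAUR9 (2.00 ± 0.19) and SAUR3 (1.98 ± 0.37). SAUR3 (AT4G34790), of the upper chromosome 4 cluster, had 0.860 and 0.617 CPM in bzr1-1D libraries, 0.233 and 0.487 CPM in pifq libraries and 1.52 and 1.06 CPM in pifq;bzr1-1D libraries, against 0.291 and 0.195 CPM in Col-0 libraries, so its changes rest on few counts. SAUR15 rose by 1.99 ± 0.53, a call that was lost without pifq;bzr1-1D replicate 1. Of the chromosome 5 copies, SAUR24 (AT5G18080) rose most, by 1.96 ± 0.22, with 16.6 and 15.6 CPM in bzr1-1D, 0.815 and 0.852 CPM in pifq and 2.88 and 3.48 CPM in pifq;bzr1-1D, against 3.05 and 2.97 CPM in Col-0. The double mutant libraries of SAUR24 thus spanned the Col-0 values. SAUR19 was the copy of this cluster with no call, at 0.24 ± 0.24.

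The 6 members called lower were SAUR31, SAUR51, SAUR6, SAUR41, SAUR71 and SAUR36. SAUR31 fell by 1.22 (SE 0.22, edgeR adjusted p = 1.43e-05), SAUR51 by 0.71 (SE 0.20) and SAUR6 by 0.71 (SE 0.12). Between them, SAUR31 had both double mutant libraries below all other genotypes, while those of SAUR51 and SAUR6 lay between pifq and Col-0. SAUR41 fell by 0.63 (SE 0.19), SAUR71 by 0.53 (SE 0.19) and SAUR36 by 0.29 (SE 0.08). Calls of 9 members were lost without a library, with adjusted p between 0.0544 and 0.412: SAUR61 (pifq replicate 2), SAUR15 and SAUR23 (pifq;bzr1-1D replicate 1), SAUR5 (pifq replicate 1 or pifq;bzr1-1D replicate 1), SAUR41 (pifq replicate 2 or pifq;bzr1-1D replicate 1), SAUR71 (pifq replicate 1 or pifq;bzr1-1D replicate 2), AT1G29490 (pifq replicate 2 or either pifq;bzr1-1D replicate), and SAUR40 and SAUR59 (any of the 4). DESeq2 called 3 lower in place of 6, SAUR51, SAUR41 and SAUR71 having no call, and did not call SAUR61, AT1G29490, SAUR5, SAUR40 and SAUR59 higher. The marker sums of pifq;bzr1-1D, for this and the next comparison, were 15393 to 15529 CPM for green tissue, 3096 to 3183 CPM for PORA and PORB, 0.373 to 0.559 CPM for root hairs, where SHV2 had 0 counts in both libraries, and 66.2 to 69.1 CPM for seed storage, and their part in the SAUR values was not tested. Relative to pifq, LHCA1 and CAB3 were higher and the other green-tissue genes lower, and of the seed genes only CRA1 was lower. Relative to bzr1-1D, RBCS3B was lower and the other green-tissue genes higher.

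The comparisons of bzr1-1D with Col-0 and of pifq;bzr1-1D with pifq share no library, so their lists can be set side by side. Of the 33 members called higher in bzr1-1D against Col-0, 29 were also called higher in pifq;bzr1-1D against pifq, which is 87.9% of those 33 and 96.7% of the 30 called there. Over all genes tested, these shares were 45.9% and 50.3%. Of the 7 and 6 called lower, 4 were in both lists (57.1% and 66.7%): SAUR31, SAUR36, SAUR41 and SAUR71. The shares over all genes tested were 44.4% and 41.7%. A member of opposite sign was found in each direction. SAUR6 rose with bzr1-1D where the PIFs were present and fell where they were absent. SAUR59 (AT3G60690) had 5.67 and 5.47 CPM in bzr1-1D, 6.91 and 7.30 CPM in pifq and 7.86 and 8.75 CPM in pifq;bzr1-1D, against 7.01 and 6.81 CPM in Col-0, a fall of 0.29 (SE 0.12) with the PIFs and a rise of 0.28 ± 0.11 without them. Both of its calls were lost when any of the 4 libraries compared was left out.

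The next comparison gave the effect of PIF loss where BZR1 was active. Relative to bzr1-1D, 31 of 46 tested members were called lower in pifq;bzr1-1D and 9 higher by edgeR, where 31.6% and 33.8% of all genes tested were called lower and higher. The median log2 fold change was -1.20 over the tested members and 0.02 over all genes, and 27 of the called members were lower by more than 2-fold. The sums fell by 2.68 (SE 0.06) for the chromosome 5 cluster, 1.33 (SE 0.06) for chromosome 1, 1.51 (SE 0.10) for chromosome 3, and 1.04 (SE 0.07) and 0.55 (SE 0.07) for the upper and lower chromosome 4 clusters, with an edgeR adjusted p of at most 4.71e-08. The chromosome 2 pair, at 0.10 ± 0.13, had no call (adjusted p = 0.513). The deepest falls were again on chromosome 5: SAUR19 fell by 3.28 (SE 0.14), SAUR22 by 2.90 (SE 0.13) and SAUR23 by 2.84 (SE 0.14).

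The members called higher were SAUR41 (1.65 ± 0.26), SAUR14 (1.18 ± 0.11), SAUR3 (0.98 ± 0.32), SAUR59 (0.67 ± 0.12), SAUR71 (0.66 ± 0.23), SAUR51 (0.60 ± 0.24), SAUR6 (0.43 ± 0.14), SAUR49 (0.36 ± 0.14) and SAUR55 (0.24 ± 0.07). SAUR55 (AT5G50760) stayed between 16.5 and 21.5 CPM in all 8 libraries, the narrowest span among the 10 most abundant members by the ratio of highest to lowest library. The count of 9 became 4 without bzr1-1D replicate 2, 3 without pifq;bzr1-1D replicate 1, 5 with library totals as the only scaling and 3 with DESeq2. SAUR41, SAUR14 and SAUR59 kept their calls in each of these settings, and the lower call of SAUR61 was lost on leaving out any library but bzr1-1D replicate 1. The comparisons of pifq with Col-0 and of pifq;bzr1-1D with bzr1-1D share no library either. Of the 24 and 31 members called lower, 23 were in both lists (95.8% and 74.2%), and the 4 called higher in pifq against Col-0 were among the 9 (44.4% of those). Over all genes tested, the shares in both lists were 59.8% and 57.8% of the genes called lower and 62.8% and 59.5% of those called higher.

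The interaction tested whether the bzr1-1D effect differed without the PIFs from that with them. It was called lower without the PIFs for 15 of 46 tested members and higher for 4 by edgeR, where 26.9% and 21.9% of all genes tested were called lower and higher, and the median was -0.45 over the tested members and -0.06 over all genes. The share called lower was thus close to that of all genes, while the share called higher was smaller. All 6 cluster sums were called lower, by 1.90 (SE 0.14) for the lower chromosome 4 cluster, 1.40 (SE 0.19) for the chromosome 2 pair and between 0.50 and 0.77 for the others. A sum does not stand for each copy. The lower chromosome 4 sum moved further than SAUR14 (-0.66), SAUR16 (-1.69) or SAUR15 (-1.74, no call), and the copies that made up this sum differed by genotype, as given below. In the upper chromosome 4 cluster, 1 of 6 tested copies was called lower, SAUR50. Of called members with at least 1 CPM, the difference was largest for SAUR10, at -2.24 ± 0.54, SAUR16, at -1.69 ± 0.38, and SAUR50, at -1.52 ± 0.19. SAUR78 gave the most precise one, at -1.20 ± 0.07 (adjusted p = 2.38e-15). The 4 members with a difference in the other direction were SAUR71 (0.92 ± 0.28), SAUR59 (0.57 ± 0.16), SAUR36 (0.50 ± 0.10) and SAUR55 (0.36 ± 0.10).

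In pifq;bzr1-1D against pifq, 24 of the 29 tested clustered copies were called higher, where 28.1% of all genes tested were. The interaction was called lower for 11 of the 29 and higher for 0, where 26.9% and 21.9% of all genes tested were called lower and higher. SAUR78 rose by 1.77 ± 0.05 where the PIFs were present and by 0.57 ± 0.05 where they were absent. For SAUR22, of chromosome 5, the estimates were 1.50 ± 0.26 without the PIFs and 1.51 ± 0.10 with them, and no interaction was called. Calls of 5 members were lost without a library (edgeR adjusted p 0.0512 to 0.317): AT1G29510 without Col-0 replicate 1, pifq replicate 1 or pifq;bzr1-1D replicate 2, SAUR27 without pifq replicate 2, SAUR26 when Col-0 replicate 2, bzr1-1D replicate 1, pifq;bzr1-1D replicate 1 or a pifq replicate was left out, SAUR21 without Col-0 replicate 1 or pifq replicate 1, and SAUR71 without bzr1-1D replicate 2 or pifq;bzr1-1D replicate 1. DESeq2 did not call the interaction for AT1G29510, SAUR27, SAUR26, SAUR71, SAUR53, SAUR55 and SAUR59 (adjusted p 0.0538 to 0.141), which left 1 member called higher in place of 4.

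**Figure D3:**
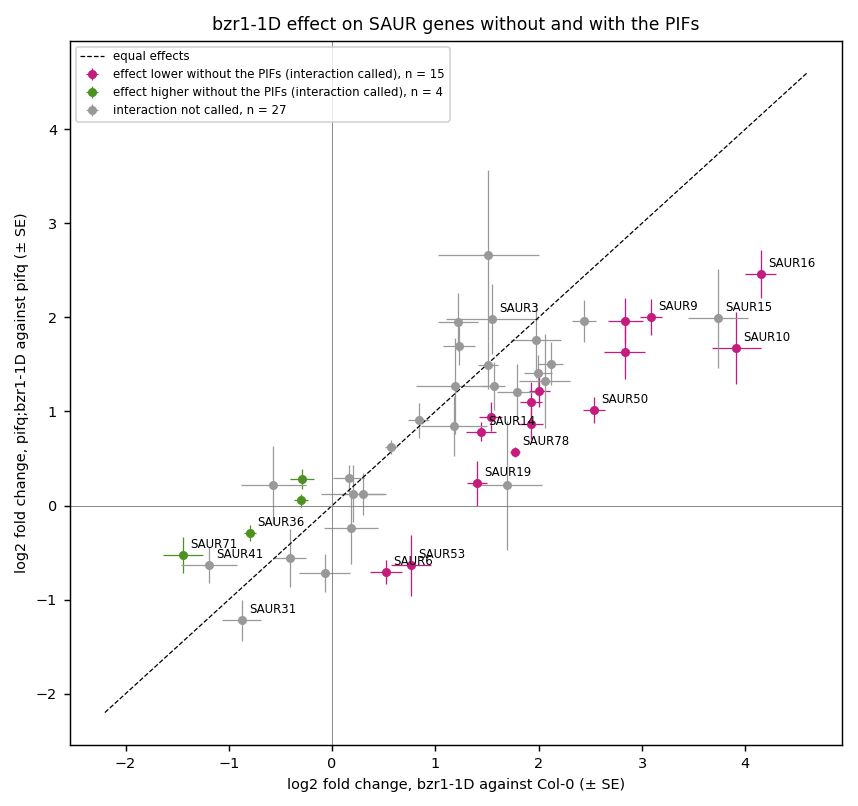
Each point is a tested SAUR gene: its log2 fold change in bzr1-1D against Col-0 (x axis) and in pifq;bzr1-1D against pifq (y axis), with SE bars; colour shows the interaction call, and the dashed line marks equal effects. The 15 genes with a lower effect without the PIFs lie below the line, SAUR16 at 4.15 and 2.46 among them, and SAUR6 lies above 0 on the x axis and below 0 on the y axis.

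Within the lower chromosome 4 cluster the copies did not move together. As a share of the cluster's counts, SAUR14 made up 25.8% and 22.1% in bzr1-1D libraries, 91.1% and 93.3% in pifq libraries and 78.5% and 81.7% in pifq;bzr1-1D libraries, against 69.0% and 60.5% in Col-0 libraries. SAUR16 made up 59.0% and 65.0% in bzr1-1D, 6.33% and 5.83% in pifq and 17.6% and 15.5% in pifq;bzr1-1D, against 22.5% and 31.6% in Col-0. The cluster sum in pifq was thus nearly all SAUR14, and in bzr1-1D mostly SAUR16. Per length of transcript, SAUR14 had 11.3 CPM per kb in bzr1-1D, 14.5 CPM per kb in pifq and 23.4 CPM per kb in pifq;bzr1-1D, against 4.15 CPM per kb in Col-0. SAUR16 had 16.2 CPM per kb in bzr1-1D, 0.526 CPM per kb in pifq and 2.70 CPM per kb in pifq;bzr1-1D, against 0.960 CPM per kb in Col-0. In the upper cluster, SAUR1 made up 36.4% in each bzr1-1D library, 21.9% and 14.5% in pifq and 19.4% and 22.0% in pifq;bzr1-1D, against 51.7% and 47.5% in Col-0. It fell by 1.94 in pifq (SE 0.15), where SAUR50 had no call, and was the member of that cluster called lower there.

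**Figure D4:**
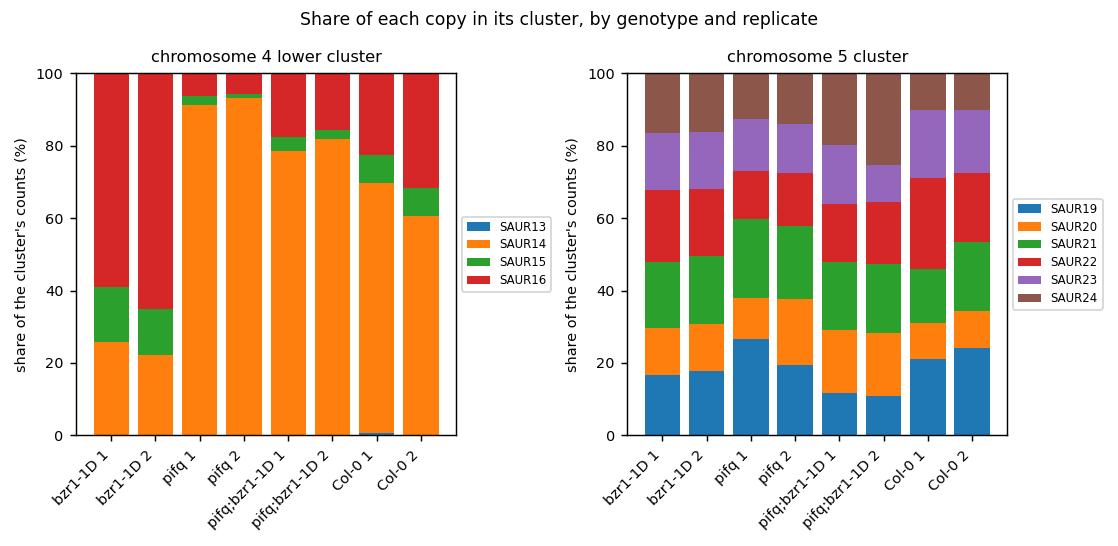
Share of each copy in the counts of its cluster, in percent, for the lower chromosome 4 cluster (left) and the chromosome 5 cluster (right), by genotype and replicate; counts are not divided by transcript length. SAUR14 takes 91.1% and 93.3% of the left cluster in pifq libraries, whereas on the right every copy keeps a share in every library.

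The clusters were also set beside their chromosomal neighbours, taking 20 tested genes on each side that are not members. In bzr1-1D against Col-0, the median log2 fold change of these 40 neighbours was -0.04 for the chromosome 1, 5 and 2 groups, -0.01 for chromosome 3 and the upper chromosome 4 cluster and 0.05 for the lower one. In pifq against Col-0 the medians ran between -0.12 for chromosome 1 and chromosome 5 and 0.11 for the chromosome 2 pair. The cluster sums, between 0.72 and 2.90 in the first of these comparisons, stood apart from these medians, though single neighbours reached 5.91.

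The 250 bases before each annotated gene start were read from TAIR10.1 for all 49 members and for 27443 genes, and searched on both strands for the letters that PIFs, BZR1 and ARFs are known to bind. CACATG (on the other strand CATGTG), an E-box bound by PIFs, was found before 26 members (53.1%) and before 11.1% of all genes. CACGTG, the G-box bound by PIFs and BZR1, was found before 1 member (2.04%) and before 6.49% of all genes. CGTGTG and CGTGCG, BZR1 elements, were found before 1 and 0 members (5.37% and 1.57% of all genes). The auxin response elements TGTCTC and TGTCGG were found before 7 and 2 members, 14.3% and 4.08%, against 10.9% and 4.16% of all genes. SAUR59 was the member with CACGTG, with 2 copies, and with CGTGTG, with 3, and 2 pairs of these overlap. None of the 6 motifs was found before 20 members.

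CACATG was found before 23 of 31 clustered genes and 3 of 18 others, and before 22 of the 33 members called higher in bzr1-1D against Col-0, 0 of the 7 called lower and 3 of the 6 with no call. All 8 windows of the chromosome 1 cluster and all 4 of the chromosome 3 cluster held it. Tandem copies descend from a common gene, so their windows do not count as separate cases. A match of letters shows neither binding nor which factor would bind, so the E-box counts are not counts of PIF sites alone. SAUR16, SAUR10, SAUR50 and SAUR78 had none of the motifs in this window. The windows of 4 members that rose in bzr1-1D, from different clusters and from outside them, are printed 5′ to 3′ on the coding strand (minus for SAUR19, plus for the others) to show where the letters lie. Capitals mark CACATG or CATGTG and, in SAUR15, also the auxin element, read there as GAGACA.
SAUR9: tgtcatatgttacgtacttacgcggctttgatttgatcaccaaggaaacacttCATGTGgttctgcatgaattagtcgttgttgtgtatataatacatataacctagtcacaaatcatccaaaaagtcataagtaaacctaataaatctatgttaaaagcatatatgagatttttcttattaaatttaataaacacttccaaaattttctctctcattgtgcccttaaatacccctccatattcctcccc
SAUR15: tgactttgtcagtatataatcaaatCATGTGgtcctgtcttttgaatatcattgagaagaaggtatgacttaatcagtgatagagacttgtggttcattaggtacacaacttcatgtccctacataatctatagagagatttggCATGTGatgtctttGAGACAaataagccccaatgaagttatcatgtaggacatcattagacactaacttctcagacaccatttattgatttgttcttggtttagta
SAUR19: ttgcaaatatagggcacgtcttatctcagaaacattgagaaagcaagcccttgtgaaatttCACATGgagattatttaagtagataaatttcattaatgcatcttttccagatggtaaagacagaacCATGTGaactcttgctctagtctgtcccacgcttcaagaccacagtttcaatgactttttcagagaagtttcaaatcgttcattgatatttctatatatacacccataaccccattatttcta
SAUR26: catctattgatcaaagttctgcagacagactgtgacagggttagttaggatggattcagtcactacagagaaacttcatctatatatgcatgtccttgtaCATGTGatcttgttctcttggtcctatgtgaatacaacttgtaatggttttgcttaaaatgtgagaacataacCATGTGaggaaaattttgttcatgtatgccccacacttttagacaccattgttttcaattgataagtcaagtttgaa
SAUR15, SAUR19 and SAUR26 hold the E-box letters at 2 places each and SAUR9 at 1.

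The genes of SAUR partners were taken from lists of known proteins. Of the 9 PP2C.D phosphatase genes, 5 were called lower and 2 higher in bzr1-1D against Col-0, 8 lower and none higher in pifq against Col-0, 1 lower and 4 higher in pifq;bzr1-1D against pifq, and 4 lower and 3 higher in pifq;bzr1-1D against bzr1-1D. Over all genes tested, 26.1%, 30.5%, 27.8% and 31.6% were called lower in these comparisons, and 30.8%, 32.0%, 28.1% and 33.8% higher. Their median log2 fold changes, for the 9 phosphatase genes, were -0.11, -0.27, 0.15 and 0.07, where those over all genes were 0.02, 0.01, -0.01 and 0.02. AT5G02760, which is also known in leaf senescence, averaged 172 CPM in bzr1-1D, 208 CPM in pifq and 208 CPM in pifq;bzr1-1D, against 282 CPM in Col-0, and fell by 0.69 (SE 0.04) in bzr1-1D. AT3G17090 averaged 118 CPM in bzr1-1D, 136 CPM in pifq and 144 CPM in pifq;bzr1-1D, against 208 CPM in Col-0, and fell by 0.79 (SE 0.04) in bzr1-1D. The phosphatase gene with the widest span was AT5G66080, with 33.9 CPM in bzr1-1D, 16.2 CPM in pifq and 5.23 CPM in pifq;bzr1-1D, against 52.0 CPM in Col-0. It fell by 1.61 (SE 0.06) in pifq and by 2.61 (SE 0.08) in pifq;bzr1-1D against bzr1-1D.

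Of the 11 AHA proton pump genes, 10 were tested: 4 were called higher and 5 lower in bzr1-1D against Col-0, 2 and 4 in pifq against Col-0, 6 and 1 in pifq;bzr1-1D against pifq, and 4 and 3 in pifq;bzr1-1D against bzr1-1D. The shares of all genes tested were 30.8%, 32.0%, 28.1% and 33.8% higher and 26.1%, 30.5%, 27.8% and 31.6% lower. Medians of the pump genes were -0.15, -0.14, 0.24 and 0.02, where those over all genes were 0.02, 0.01, -0.01 and 0.02. AHA2, listed as HA2, is the main pump of the seedling together with AHA1. It averaged 1247 CPM in bzr1-1D, 770 CPM in pifq and 918 CPM in pifq;bzr1-1D, against 963 CPM in Col-0, a rise of 0.40 ± 0.04 in bzr1-1D and a fall of 0.26 (SE 0.04) in pifq. HA3 averaged 68.0 CPM in bzr1-1D, 165 CPM in pifq and 197 CPM in pifq;bzr1-1D, against 117 CPM in Col-0, and so fell by 0.77 (SE 0.05) in bzr1-1D and rose by 0.56 ± 0.04 in pifq.
Of 10 auxin receptor and activating ARF genes, 4 were called higher and 2 lower in bzr1-1D against Col-0, none higher and 6 lower in pifq against Col-0, 6 and 2 in pifq;bzr1-1D against pifq, and 1 and 5 in pifq;bzr1-1D against bzr1-1D. Among all genes tested, 30.8%, 32.0%, 28.1% and 33.8% were called higher and 26.1%, 30.5%, 27.8% and 31.6% lower. Medians of these 10 genes were 0.09, -0.16, 0.20 and -0.08, where those over all genes were 0.02, 0.01, -0.01 and 0.02. The receptor gene TIR1 fell by 0.32 (SE 0.04) in bzr1-1D and by 0.37 (SE 0.04) in pifq, while NPH4, which encodes ARF7, rose by 0.36 ± 0.04 in bzr1-1D. In each of these 4 comparisons the members of the lists stayed within 1 log2 unit, apart from AT5G66080, HA3, HA7 and AHA10.

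A further 31 genes are named SAUR in the annotation but are not among the 49. They include AT5G01830, whose name there repeats that of SAUR21 on chromosome 5 but whose product is not a SAUR protein. Of the 31, 20 were tested, and in bzr1-1D against Col-0 9 were called higher and 7 lower, with a median log2 fold change of 0.22. Of all genes tested, 30.8% and 26.1% were called so, with a median of 0.02. In pifq against Col-0, 2 were called higher and 8 lower, with a median of -0.58, where 32.0% and 30.5% of all genes tested were called, with a median of 0.01. SAUR25, whose coding sequence was 66.3% to 70.0% identical to the chromosome 5 copies, averaged 7.26 CPM in bzr1-1D, 0.0988 CPM in pifq and 0.519 CPM in pifq;bzr1-1D, against 4.07 CPM in Col-0. It was called lower in pifq. SAUR77 averaged 1.06 CPM in bzr1-1D, 2.76 CPM in pifq and 1.84 CPM in pifq;bzr1-1D, against 4.68 CPM in Col-0, and fell by 2.12 (SE 0.20) in bzr1-1D.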

How the data were processed

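Whole-number counts of reads per gene were deposited by the authors, 1 file per library, for 8 libraries. The submitters' processing notes name TopHat, HTSeq and the TAIR9 build. Tool versions, strandedness and the handling of multiply mapped reads are not given in the sources used. HTSeq's unassigned (2.68% to 4.27%) and ambiguous (1.95% to 2.08%) classes, as shares of gene counts and summary classes, stayed out of library sizes and tests. Per the labels' protocols, total RNA was made into TruSeq RNA libraries. Totals were 16.1 to 34.4 M counts (M, mega).

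Genotype and replicate number came from the titles. The test across genes was that of edgeR 4.0.16 in R 4.3.3: TMM factors (0.942 to 1.04), filterByExpr (21221 genes kept), 1 fit of all 8 libraries by genotype, leaving 4 residual degrees of freedom, the quasi-likelihood F test, and Benjamini-Hochberg adjustment over all genes tested, with calls at an adjusted p under 0.05. The SE is the absolute log2 fold change over the square root of F. For cluster sums, the members' rows were replaced by their sum and the fit was repeated over 21198 rows. The interaction subtracts the bzr1-1D effect in plants with PIFs (bzr1-1D against Col-0) from the one in plants lacking them (pifq;bzr1-1D against pifq). The procedure was tested on simulated counts. CPM are counts per M gene counts, and CPM per kb divides by the length of the TAIR10.1 transcript.

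The members and all lists were chosen with earlier results of these data known. Values in every library are given for cluster sums, for the 10 members with the highest mean CPM in any genotype, and, per comparison, for the 3 highest and 3 lowest log2 fold changes among called members of at least 1 CPM in the higher genotype. SAUR24 was added after its values were seen, as were the pathway genes HA7, AHA10 and NPH4. Alternatives were DESeq2 1.42.0, RLE factors, library totals alone, no count filter, at least 1 CPM in 2 libraries, a replicate block, only the libraries compared, and leaving out each library in turn. Names, sequences and gene order came from RefSeq's TAIR10.1, which held 32709 of the gene codes and lacked 809. No coordinates are given, since the counts were made on another build. Coding sequences were aligned with Biopython 1.88. AT1G29490 and AT1G29510 share the name SAUR68 in the annotation and are given by code.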

Additional observations from a re-analysis of the deposited data

Results flagged for a closer look

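The bzr1-1D effect differed between plants without the PIFs and plants with them, by the edgeR interaction test itself, for all 6 cluster sums and 19 of 46 tested members. Of all genes tested, 21.9% were called higher and 26.9% lower by that test, so the members' share is no larger. DESeq2 did not call 7 of the 19: AT1G29510, SAUR27, SAUR26, SAUR71, SAUR53, SAUR55 and SAUR59 (adjusted p 0.0538 to 0.141). For the cluster sums, the difference (effect in PIF-less plants minus effect in plants with PIFs) was -0.53 on the log2 scale for chromosome 1, -0.77 for chromosome 3, -0.54 and -1.90 for the upper and lower chromosome 4 clusters, -0.50 for chromosome 5 and -1.40 for the chromosome 2 pair. The lower chromosome 4 sum differed more than any of its tested copies, and in the upper cluster SAUR50 was the one copy called. The sum of the chromosome 2 pair fell by 0.68 without the PIFs and rose by 0.72 with them, so the direction of the sum turned. This turn was that of SAUR6, which held most of the pair's counts. SAUR7 rose by 1.69 ± 0.34 with the PIFs and had no call without them, at 0.21 ± 0.68. Its interaction was not called (edgeR adjusted p = 0.124).

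Outside the clusters, the difference was -2.24 for SAUR10, -1.40 for SAUR53, -1.20 for SAUR78 and -1.08 for SAUR9. It had the other sign for SAUR71 (0.92), SAUR59 (0.57), SAUR36 (0.50) and SAUR55 (0.36). SAUR53 had 2.77 and 2.92 CPM in bzr1-1D, 0.931 and 1.01 CPM in pifq and 0.542 and 0.683 CPM in pifq;bzr1-1D, against 1.77 and 1.61 CPM in Col-0.

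On chromosome 4 the difference was -1.69 for SAUR16, -1.52 for SAUR50 and -0.66 for SAUR14. It was -1.06 for SAUR63, -0.79 for SAUR66 and -0.59 for AT1G29510 on chromosome 1, -1.20 for SAUR27 and -0.88 for SAUR26 on chromosome 3, -1.16 for SAUR19 and -0.82 for SAUR21 on chromosome 5, and -1.22 for SAUR6 on chromosome 2. SAUR63 overlaps AT1G29435 on the other strand and the strand setting is not given. Its counts may therefore lack reads set aside as ambiguous, or include reads of AT1G29435. Single copies of the chromosome 1, 3 and 5 clusters may share reads.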

How the results depend on the processing

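All 444 alternative values of the cluster sums kept their direction and their side of the threshold. Of the alternative values of single members, 3233 did so, 135 kept the direction but lost the call, 18 gained one, and none reversed. Of 163 calls of members, 41 were lost in some setting. With DESeq2, 3 members were called lower in pifq;bzr1-1D against pifq (6 with edgeR), 3 higher in pifq;bzr1-1D against bzr1-1D (9 with edgeR) and 1 higher in the interaction (4 with edgeR). With library totals as the only scaling, 5 were called higher in pifq;bzr1-1D against bzr1-1D. Leaving out each library in turn moved that count between 3 and 9, the one against pifq called lower between 5 and 6, and the interaction called higher between 3 and 5. The cause was not tested.

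Library totals alone moved the median of all genes in pifq;bzr1-1D against bzr1-1D to -0.09, from 0.02 with TMM, and the share of higher among all calls to 39.5%, from 51.7%; against pifq that share was 39.9%, and 50.2% with TMM. With the replicate block, 33 members were called higher and 7 lower in bzr1-1D against Col-0, 4 and 23 in pifq against Col-0, 30 and 6 in pifq;bzr1-1D against pifq, 9 and 30 in pifq;bzr1-1D against bzr1-1D, and 4 and 17 in the interaction. Over all genes tested, same-numbered libraries did not deviate together (correlations between -0.02 and 0.03). Counting noise in low genes can hide a shared deviation, so whether the numbers pair libraries stays unknown. With 2 libraries per genotype, leaving 1 out assumes that the lone library varies like the others. Members under 1 CPM rest on few counts, so their fold changes are imprecise.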
